A study of Bos indicus x Bos taurus with 17 samples.

Results

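The genes described are the myosin light chains MYL1, MYL2, MYL3, MYL4, MYL6, MYL6B, MYL9 and MYLPF. They are 8 of the 21048 genes listed for liver and muscle. They were taken by their symbols, with no cut on a measured value, but earlier results of these data were known when they were chosen. RNA was sequenced from liver and skeletal muscle of 6 bovine fetuses at about day 105 of gestation. The fetuses were F1 crosses of Bos indicus and Bos taurus. The 4 ART-Normal fetuses (numbered 1 to 4) were conceived by assisted reproductive technologies, that is in vitro produced embryos transferred to recipients. The labels place all 4 in the same ART group, described as healthy, whereas the study's list of normal-weight ART fetuses holds ART-Normal 1 to 3 and does not include ART-Normal 4, whose weight was not given in the sources used here. The 2 Control-AI fetuses (numbered 2 and 4) were conceived by artificial insemination. Each fetus gave 1 liver and 1 muscle library, so a group holds separate animals and each tissue pair comes from 1 animal. Which muscle was taken, and the sex of the fetuses, were not used here. The comparisons ask how the light chain genes differ between the tissues and whether conception by ART goes with a difference in either of them.

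A myosin motor is built from heavy chains, each of which carries an essential and a regulatory light chain on its lever arm. The essential chains stiffen the lever. The regulatory chains set motor activity in smooth muscle and non-muscle cells, where their phosphorylation by myosin light chain kinases switches the motor on and a myosin phosphatase switches it off, and they tune force in striated muscle. In skeletal muscle the light chains come in fast, slow and embryonic forms that follow the fiber type and the stage of development.

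Among the essential chains, MYL1 (fast skeletal muscle) lay at chr2:98099881-98126181 on the minus strand of the ARS-UCD1.2 assembly. MYL3 (slow skeletal and ventricular muscle) lay at chr22:52638286-52644068 on the plus strand, and MYL4 (embryonic skeletal and atrial muscle) at chr19:46285322-46300144 on the plus strand. MYL6 (non-muscle and smooth muscle cells) lay at chr5:57161868-57165070 and MYL6B, its close relative, at chr5:57165320-57169503, both on the minus strand and separated by 249 bp. Among the regulatory chains, MYL2 (slow skeletal and ventricular muscle) lay at chr17:54706768-54714591 on the minus strand, MYLPF (fast skeletal muscle) at chr25:26559395-26561857 on the plus strand, and MYL9 (smooth muscle and non-muscle cells) at chr13:65647900-65655870 on the plus strand. No member overlapped another listed gene. The nearest opposite-strand genes were SMARCC2, 81 bp from MYL6, and SEPT1, 183 bp from MYLPF. The counts are summed per gene, so the alternative transcripts of MYL1 were not separated.

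Library totals ran from 12433300 to 23578362 counts in muscle and from 18454088 to 43339598 in liver, and Control-AI 2 had the lowest total in each tissue. The labelled tissues were checked against marker genes, in CPM, read counts scaled to the library total after TMM normalization over the 12 libraries. The summed level of 8 skeletal muscle markers was 8416 to 11649 CPM in muscle and 6.37 to 22.1 CPM in liver, with MYOD1 at 0 in every liver library. The summed level of 7 hepatocyte markers was 25001 to 328303 CPM in liver and 24.7 to 350 CPM in muscle. Control-AI 2 gave the highest of all these liver values, for both lists, and the highest hepatocyte sum in muscle. Its liver hepatocyte sum of 328303 CPM stood far above the other livers, at 25001 to 49610 CPM. The TMM factor of that library was 0.761. Results that rest on Control-AI 2 are therefore given with and without it. In these bulk samples fewer cells of a type and less RNA per cell cannot be told apart.

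All 8 light chains were abundant in fetal muscle. MYLPF, the fast regulatory chain, was at 1258, 1696, 1511 and 2108 CPM in ART-Normal 1 to 4 and at 1455 and 1533 CPM in Control-AI 2 and 4. MYL2, its slow counterpart, was at 1311, 1476, 1172 and 1576 CPM in ART-Normal and at 1280 and 1496 CPM in Control-AI. The Control-AI values of both regulatory genes fell inside the ART-Normal range. MYL1 was at 845, 1071, 823 and 1036 CPM in ART-Normal and at 1282 and 1086 CPM in Control-AI. MYL4, the embryonic essential chain, was at 609, 884, 772 and 944 CPM in ART-Normal and at 807 and 794 CPM in Control-AI. The fast gene was higher in both Control-AI fetuses than in any ART-Normal fetus, whereas the embryonic gene was lowest in ART-Normal 1 and overlapped between the groups. MYL3 was lower than the other sarcomeric members, at 110, 134, 95.2 and 127 CPM in ART-Normal and at 138 and 141 CPM in Control-AI.

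MYL6B, MYL6 and MYL9, which are not counted here as sarcomeric members, were at lower mean CPM than MYLPF, MYL2, MYL1 and MYL4. That grouping does not describe the tissue pattern of MYL6B. MYL6B was at 0.177 to 0.599 CPM in liver, near 0 as the sarcomeric members were, unlike MYL6 and MYL9. Shares of the sarcomeric members therefore leave out a gene that was high in muscle and near 0 in liver. MYL6B and MYL6 were above MYL3 in every fetus. MYL6B was at 258, 428, 263 and 304 CPM in ART-Normal muscle and at 227 and 268 CPM in Control-AI muscle, and its range of 1.88-fold was the widest of the 8. MYL6 was at 281, 257, 240 and 313 CPM in ART-Normal and at 251 and 293 CPM in Control-AI. ART-Normal 2 stood above the other fetuses in MYL6B but not in MYL6, the neighbouring gene. MYL9 was at 60.5, 72.2, 74.4 and 80.8 CPM in ART-Normal and at 107 and 83.3 CPM in Control-AI.

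The mean CPM in muscle (± SD, n = 6) was 1594 ± 289 for MYLPF, 1385 ± 154 for MYL2, 1024 ± 170 for MYL1, 802 ± 114 for MYL4, 291 ± 71.3 for MYL6B, 272 ± 27.9 for MYL6, 124 ± 18.0 for MYL3 and 79.8 ± 15.7 for MYL9. CPM does not correct for gene length. Per kb of the listed gene span, which includes introns and so lowers genes with long introns, the mean level was 647 CPM per kb for MYLPF, 177 for MYL2, 85.0 for MYL6, 69.6 for MYL6B, 54.1 for MYL4, 38.9 for MYL1, 21.5 for MYL3 and 10.01 for MYL9. On this scale the neighbours MYL6 and MYL6B, MYL6B and MYL4, and MYL4 and MYL1 overlapped in their ranges over the 6 fetuses, and the other neighbours did not. MYLPF had the highest mean, and MYL3 and MYL9 the lowest, on either scale. On the CPM scale MYLPF and MYL2 overlapped in range, as did MYL2 and MYL1, MYL1 and MYL4, MYL6B and MYL6, and MYL3 and MYL9.

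In liver the family split into MYL6 and MYL9, which were measured at substantial levels, and 6 members at or near 0. MYL6 was at 211, 201, 221 and 231 CPM in ART-Normal liver and at 156 and 253 CPM in Control-AI liver. MYL9 was at 26.0, 30.01, 27.3 and 28.2 CPM in ART-Normal and at 28.0 and 35.2 CPM in Control-AI. Per kb of span the liver means were 66.2 CPM per kb for MYL6 and 3.65 for MYL9, and these ranges did not overlap. These were the only members of the 8 that passed the expression filter in liver (5 CPM or more in every library of a conception group), while all 8 passed it in muscle.

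**Figure D1:**
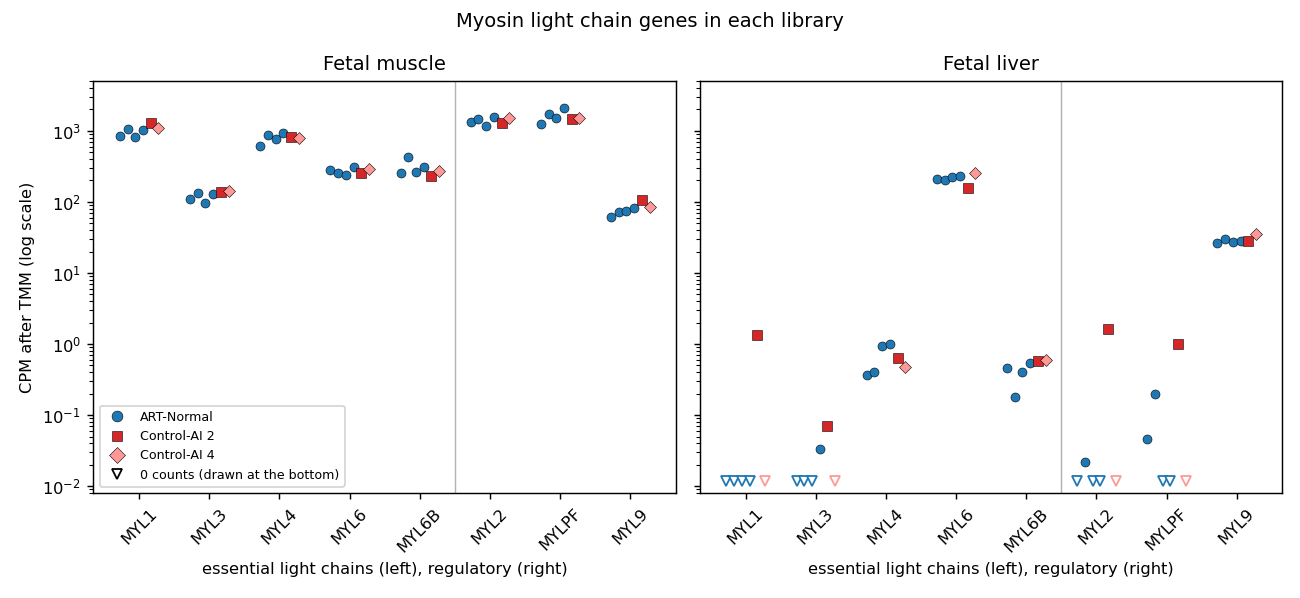
CPM after TMM (log scale) of the 8 light chain genes in each of the 6 muscle libraries (left) and 6 liver libraries (right), with essential chains left of the vertical line; circles are ART-Normal, the square Control-AI 2, the diamond Control-AI 4, and open triangles libraries with 0 counts. MYL6 and MYL9 stand at like orders of magnitude in both tissues, and the other genes are near 0 in liver.

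The essential chain MYL6 and the regulatory chain MYL9, the members that passed the filter in both tissues, were higher in muscle. The within-fetus ratio of muscle to liver was 1.09 to 1.60 for MYL6 and 2.33 to 3.84 for MYL9, higher in muscle in 6 of 6 fetuses, and Control-AI 2 had the largest ratio of each gene. With the fetus as a block, the log2 fold change was 0.36 (SE 0.08, edgeR quasi-likelihood test, adjusted p = 0.00237) for MYL6 and 1.43 (SE 0.10, edgeR, adjusted p = 6.09e-07) for MYL9. The test called 84.6% of the 12923 genes tested, 42.5% higher in muscle, so a call by itself sets no gene apart here.

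The other 6 members passed the filter through muscle alone, so a difference between the tissues was built into their being tested. MYL4 had 8, 18, 23 and 30 liver counts in ART-Normal and 9 and 11 in Control-AI, with muscle to liver ratios between 833 and 2215 within fetuses and a log2 fold change of 10.32 (SE 0.20, edgeR adjusted p = 1.77e-10). MYL6B had 10, 8, 10 and 16 liver counts in ART-Normal and 8 and 14 in Control-AI, with ratios between 399 and 2413 and a log2 fold change of 9.43 (SE 0.24, edgeR adjusted p = 6.49e-10). Reads of these genes were thus present in all 6 livers at low level. MYL6B had 66 liver counts over the 6 fetuses next to 34070 for MYL6, whereas in muscle the adjacent genes had 35795 and 33872 counts.

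MYL1 had 0 counts in 5 of the 6 livers and 19 in that of Control-AI 2. Taking 3 counts as the upper limit that a count of 0 allows in each library, MYL1 was at least 6102-fold to at least 16101-fold higher in muscle in those 5 fetuses, against a ratio of 947 (95% Poisson interval 606 to 1573) in Control-AI 2. MYL2 had 1 liver count in ART-Normal 2, 23 in Control-AI 2 and 0 in the other 4 fetuses, in which it was at least 9467-fold to at least 15562-fold higher in muscle. In Control-AI 2 its ratio was 781 (521 to 1233), and in ART-Normal 2 the single count gave 66593 (11952 to 2.63e+06). MYLPF had 1 and 9 liver counts in ART-Normal 1 and 2, 14 in Control-AI 2 and 0 in the other 3, in which it was at least 11944-fold to at least 20812-fold higher in muscle. Its ratio was 27265 (4893 to 1.08e+06) in ART-Normal 1, 8504 (4480 to 18598) in ART-Normal 2 and 1459 (869 to 2668) in Control-AI 2. MYL3 had 1 liver count in ART-Normal 4, 1 in Control-AI 2 and 0 elsewhere, where it was at least 787-fold to at least 2018-fold higher in muscle. The single counts gave ratios of 3766 (676 to 148730) in ART-Normal 4 and 1937 (348 to 76499) in Control-AI 2. These intervals and limits cover counting error only. The fitted tissue test passed for all 4 of these genes (edgeR adjusted p from 1.56e-10 for MYL3 to 7.24e-08 for MYL2), but their fitted fold changes depend on the prior count and are not given.

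The liver of Control-AI 2 held reads of all 5 sarcomeric members. As a percentage of the muscle CPM of this fetus, the liver level was 0.106% for MYL1, 0.128% for MYL2, 0.0685% for MYLPF, 0.0516% for MYL3 and 0.0795% for MYL4. In that range, among other muscle genes of the same liver, were ACTA1 (skeletal actin) at 0.124% and CKM (muscle creatine kinase) at 0.0985%. So were TNNC2 (fast troponin C) at 0.0595% and the skeletal muscle marker MYBPC1 at 0.0976%. MYH3 (embryonic heavy chain) at 0.0938% and MYH8 (perinatal heavy chain) at 0.126% also lay in that range. The others of these lists fell outside it. Over the 8 skeletal muscle markers the percentage ran from 0 for MYOD1 to 0.442% for DES (desmin) with a median of 0.0981%, and DES was at 0.301% to 0.526% in the other 5 fetuses. Over the 9 sarcomeric heavy chains it ran from 0 for MYH1 to 3.86% for MYH4 and MYH15, which had 2 and 7 liver counts, with a median of 0.186%. Pooled over the 5 sarcomeric members (MYL1, MYL2, MYL3, MYL4 and MYLPF), the percentage was 0.0948% in Control-AI 2 and between 0.00932% and 0.0212% in the other 5 fetuses. The pooled percentage of 8 skeletal muscle markers was 0.190% against 0.0720% to 0.0799%, and that of 9 sarcomeric heavy chains 0.138% against 0.0228% to 0.0458%. The part of other tissue in the liver sample of Control-AI 2 in these counts was not tested.

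MYL4 and MYL6B did not follow that pattern. The liver percentage of MYL4 ran from 0.0451% to 0.120% over the 6 fetuses, and Control-AI 2 lay inside the range of the others. The percentage of MYL6B ran from 0.0414% to 0.251%, with Control-AI 2 next to Control-AI 4 at 0.224%. Each of the 5 livers without a MYL1 count had between 8 and 30 MYL4 counts, although MYL1 had the higher mean CPM of these genes in muscle. MYL7, the atrial regulatory chain and not a member, had 49, 22 and 60 liver counts in ART-Normal 2, 3 and 4, 3 in Control-AI 2, and 0 in ART-Normal 1 and Control-AI 4. The cardiac marker sums in liver were 31.0 to 47.9 CPM in ART-Normal and 32.9 to 38.0 CPM in Control-AI. RYR2 alone was at 30.3 to 47.8 CPM in ART-Normal liver and 32.6 to 37.2 CPM in Control-AI liver. These sums therefore could not show the other markers of the list. MYH6, one of them, had 12 liver counts in each of ART-Normal 3 and 4 and 7 in Control-AI 4. It had 1 in each of ART-Normal 1 and Control-AI 2, and 0 in ART-Normal 2. The part of other tissue in these counts was not tested.

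**Figure D2:**
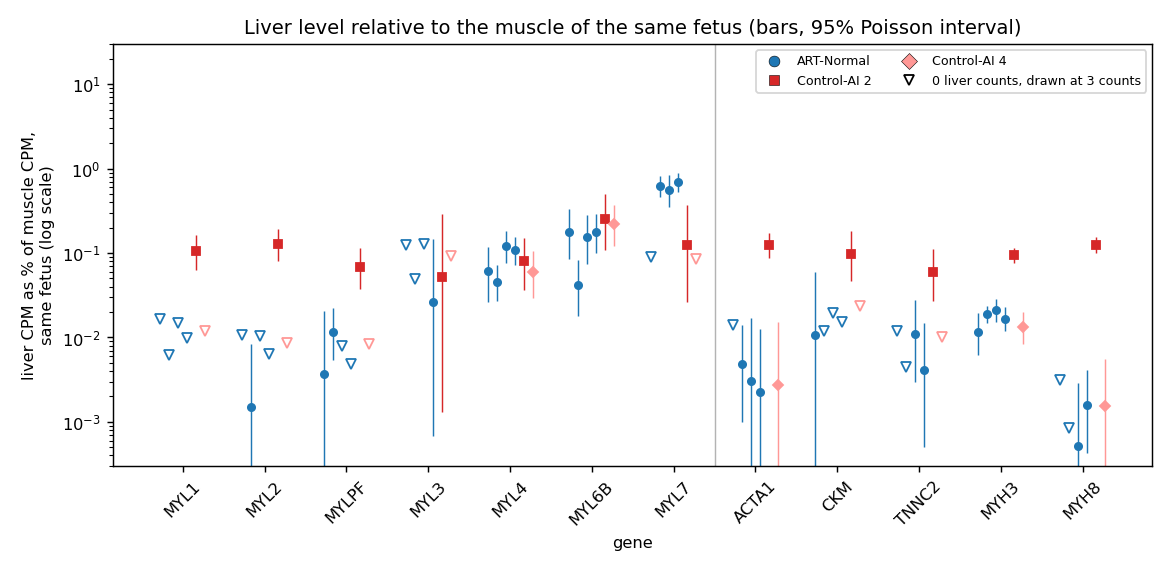
Liver CPM as a percentage of muscle CPM in the same fetus (log scale), with 95% Poisson intervals, for light chains (left of the line) and other muscle genes (right); open triangles mark 0 liver counts and sit at the level of 3 counts. Control-AI 2 (squares) lies between 0.0516% and 0.251% for the genes plotted. The other fetuses have no MYL1 counts and MYL4 percentages of 0.0451% to 0.120%. The other muscle genes plotted are those named in the text as within the range of the sarcomeric light chains in Control-AI 2, except MYBPC1. Their likeness to the light chains in that fetus follows from this choice. Genes of the same lists left off the figure ran from 0 for MYOD1 and MYH1 to 3.86% for MYH4 and MYH15 in that fetus.

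The make-up of the light chain reads differed between the tissues in every fetus. The 5 sarcomeric members made up 87.3% to 89.4% of the reads of the 8 genes in muscle and 0.163% to 2.48% in liver, and the highest liver share was that of Control-AI 2. The mean difference within fetuses was 87.8 percentage points (exact paired permutation test, two-sided p = 0.03125, the smallest that 6 pairs allow). MYL6B made up 47.6% to 62.5% of the MYL6 and MYL6B reads in muscle and 0.0881% to 0.363% in liver, a mean difference of 51.0 percentage points (exact paired permutation test, two-sided p = 0.03125). The sarcomeric members and MYL6B passed the filter in muscle alone. The direction of both differences therefore followed from the levels given above, and these p-values add nothing to it. These shares are of reads, with no correction for length.

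**Figure D3:**
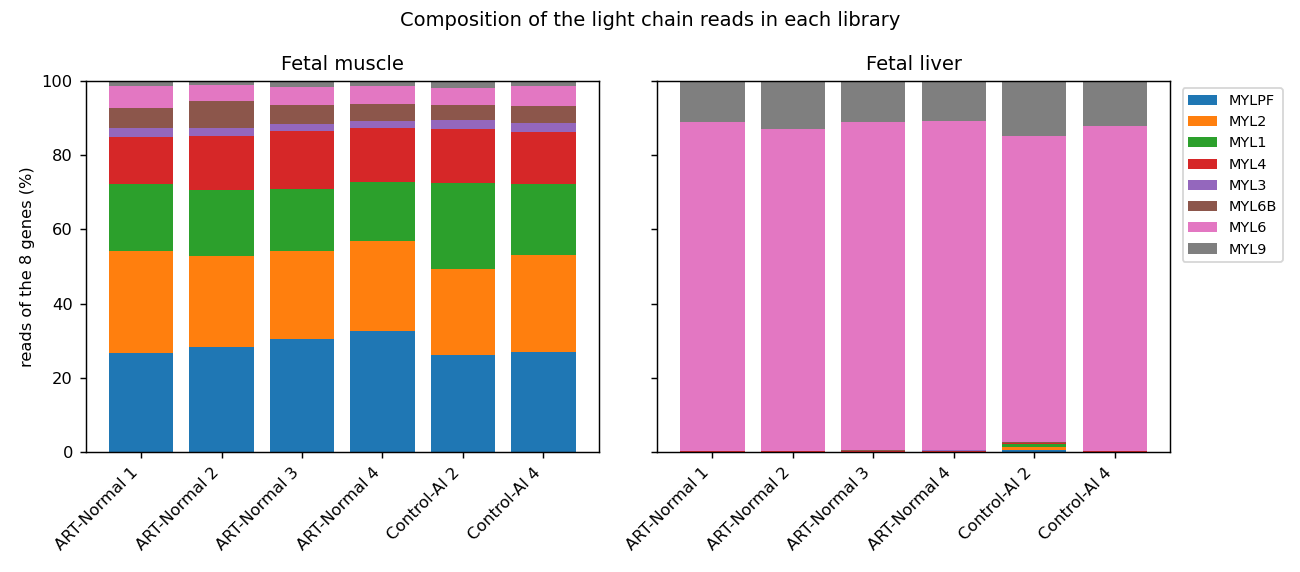
Share of the reads of the 8 light chain genes taken by each gene (percent, stacked to 100) in the 6 muscle libraries (left) and 6 liver libraries (right). MYLPF, MYL2, MYL1 and MYL4 take most of every muscle bar, MYL6 takes most of every liver bar, and the sarcomeric segment of 2.48% in the liver of Control-AI 2 is the tallest among the livers.

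Between the conception groups, none of the 8 light chains passed the test in muscle (edgeR quasi-likelihood test, 4 ART-Normal against 2 Control-AI), where 1 of 11695 genes passed, or 0.00855%. The members with the largest fold changes were MYL9, whose log2 fold change (negative where the ART-Normal level is lower) was -0.43 (SE 0.16, edgeR adjusted p = 0.451), MYL1 with -0.35 (SE 0.17, edgeR adjusted p = 0.594) and MYL6B with 0.32 (SE 0.21, edgeR adjusted p = 0.704). MYL3 followed with -0.27 (SE 0.15, edgeR adjusted p = 0.644). The values were 0.12 (SE 0.20) for MYLPF, -0.02 (SE 0.17) for MYL2, -0.02 (SE 0.19) for MYL4 and -0.01 (SE 0.15) for MYL6, with edgeR adjusted p from 0.902 to 0.991. At an unadjusted p under 0.05 the test gave 9.19% of all genes and, among the members, MYL9 alone. The likelihood ratio test of edgeR and DESeq2 also called 0 of the 8.

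MYL1, MYL3 and MYL9 were lower in all 4 ART-Normal muscles than in both Control-AI muscles, and the other 5 members overlapped. Over all genes tested the groups did not overlap for 15.5%, with ART-Normal lower for 6.37%. The fold changes of MYL9 and MYL1 rested in part on Control-AI 2. Without Control-AI 2 they were -0.22 for MYL9 and -0.21 for MYL1. Without Control-AI 4 they were -0.60 for MYL9 and -0.47 for MYL1. For MYL3, dropping Control-AI 2 gave -0.28 and dropping Control-AI 4 gave -0.27. That of MYL6B rested in part on ART-Normal 2, without which it was 0.13.

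A minority of the smooth and skeletal muscle markers, and most of the connective tissue markers, were also lower in every ART-Normal muscle than in both Control-AI muscles, which was the case for 6.37% of all genes. CNN1, the smooth muscle calponin, was at 17.2 to 20.8 CPM in ART-Normal muscle and at 30.3 and 34.6 CPM in Control-AI muscle, the only one of 6 smooth muscle markers that did not overlap. The summed level of the 6 was 429 to 566 CPM in ART-Normal and 503 to 612 CPM in Control-AI, and the smooth muscle heavy chain MYH11 was at 45.9 CPM in Control-AI 2 and at 6.46 to 9.66 CPM elsewhere. Of 5 connective tissue markers, COL1A1, COL3A1, DCN and LUM were lower in every ART-Normal muscle, and their sum with COL1A2 was 20705 to 24286 CPM in ART-Normal and 25131 to 26679 CPM in Control-AI. Of 8 skeletal muscle markers, ACTA1 alone did not overlap, with 998 to 1508 CPM across the ART-Normal muscles against 2122 and 1580.1 CPM for the 2 Control-AI muscles, and the summed levels overlapped. The part of tissue make-up in the values of MYL1, MYL3 and MYL9 was not tested.

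**Figure D4:**
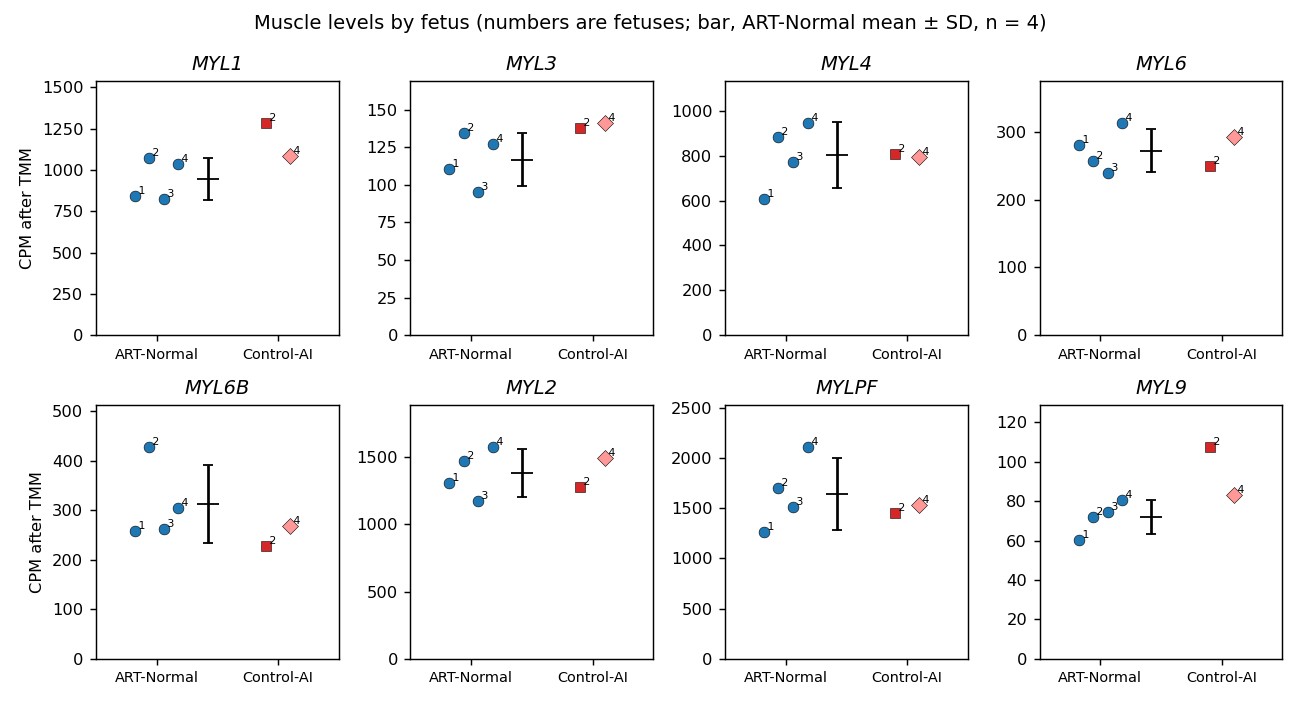
Muscle CPM after TMM of each light chain gene in each fetus (points, numbered by fetus) with the ART-Normal mean ± SD (n = 4) beside it and the 2 Control-AI fetuses to the right; each axis starts at 0. MYL1, MYL3 and MYL9 do not overlap between the groups, and ART-Normal 2 is highest in MYL6B at 428 CPM.

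**Figure D5:**
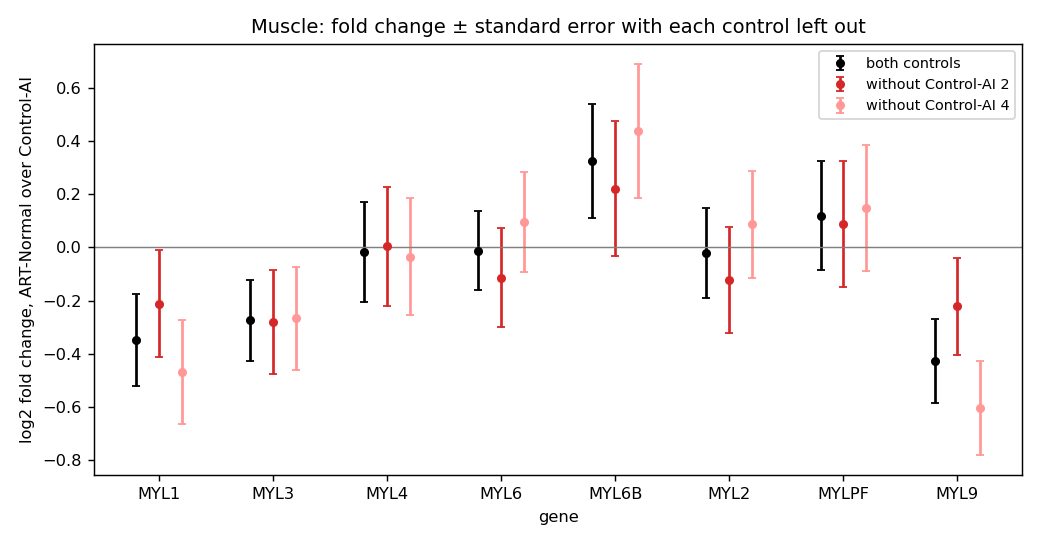
Log2 fold change in muscle (± standard error; above 0, higher in ART-Normal) for each light chain gene, with both controls (black) and with either control left out (red and pink). MYL1 and MYL9 move with the control used, MYL9 from -0.22 without Control-AI 2 to -0.60 without Control-AI 4.

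Shares within a library gave the isoform balance without scaling between libraries. MYL2, the slow form, made up 46.0% ± 3.71 (SD, n = 4) of the MYL2 and MYLPF reads in ART-Normal muscle and 46.8% and 49.4% in Control-AI 2 and 4 (exact permutation test, two-sided p = 0.533). MYL4, the embryonic form, made up 42.9% ± 3.02 of the reads of MYL1, MYL3 and MYL4 in ART-Normal and 36.2% and 39.3% in Control-AI (exact permutation p = 0.267), with ranges that overlapped. MYL3 made up 6.29% ± 0.61 against 6.20% and 6.97% (exact permutation p = 0.667). MYL6B made up 53.0% ± 6.59 of the MYL6 and MYL6B reads against 47.57% and 47.76%, and the Control-AI shares lay just under the lowest ART-Normal share of 47.85% (exact permutation p = 0.133). The mean difference of 5.32 percentage points was 2.16 without ART-Normal 2. With 4 against 2 fetuses 0.133 is the smallest two-sided p possible, so no share could pass 0.05 in this design. In liver the MYL6B share was 0.181% ± 0.0652 in ART-Normal and 0.236% and 0.363% in Control-AI, a difference of -0.119 percentage points (exact permutation p = 0.133), and it rested on 8 to 16 MYL6B reads per library. Dropping Control-AI 2 made the difference -0.0556 percentage points, and dropping Control-AI 4 made it -0.183.

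Neither testable member passed in liver, where the background was 0.0% of 11304 genes by edgeR's quasi-likelihood test. At an unadjusted p under 0.05 the test gave 8.39% of the genes and neither member, and edgeR's likelihood ratio test and DESeq2 also called 0 of the 2. MYL6 had a log2 fold change of 0.06 (SE 0.18, edgeR adjusted p = 0.910). Leaving out Control-AI 2 turned it to -0.22, and leaving out Control-AI 4 gave 0.44. MYL9 had -0.20 (SE 0.15, edgeR adjusted p = 0.661), which moved to -0.33 when Control-AI 2 was dropped, to -0.032 when Control-AI 4 was dropped and to -0.012 with library size alone. Both genes overlapped between the groups, against 18.5% of all genes that did not.

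A difference of the conception effect between the tissues was not called for any of the 8 members, nor for any of 12923 genes (0.0%, edgeR interaction term with the fetus as a block). At an unadjusted p under 0.05 this test gave 1230 of the 12923 genes. The likelihood ratio test called 108 genes and DESeq2 23, none of them a member. For MYL6 the log2 fold change in muscle minus that in liver was -0.13 (SE 0.17, edgeR adjusted p = 0.806), and for MYL9 it was -0.24 (SE 0.21, edgeR adjusted p = 0.697). MYL2 (edgeR adjusted p = 0.509) and MYL1 (edgeR adjusted p = 0.510) were under 0.05 before adjustment, and nearly all of their liver counts came from Control-AI 2. Both genes passed the filter through muscle alone, and their fitted interaction values changed with the control left out.

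The heavy chains that carry these light chains were divided by tissue as well. All 9 sarcomeric heavy chains in the tables were higher in muscle, as were 42.5% of all genes, but none of them passed the filter in liver, so that direction was built into their being tested. MYH3 was at 5630.1 to 8280.5 CPM in muscle and 0.646 to 7.41 CPM in liver, MYH8 at 4408 to 8494 and 0 to 6.41 CPM, MYH7 (slow) at 1087 to 1619 and 0.310 to 2.71 CPM, and MYH2 (fast 2A) at 154 to 256 and 0 to 0.356 CPM. The 4 cytoplasmic and smooth muscle heavy chains were all lower in muscle, where 42.2% of all genes were, with log2 fold changes of -2.64 for MYH14, -1.15 for MYH11, -0.41 for MYH10 and -0.37 for MYH9 (edgeR adjusted p from 4.65e-07 to 0.000815), and 2 of the 4, MYH11 and MYH14, passed with library size alone. Of the other light chains, MYL7 was at 150 to 290 CPM in muscle and 0 to 2.03 CPM in liver, and MYL12A, a non-muscle regulatory chain, was higher in muscle by 1.29 on the log2 scale (SE 0.11, edgeR adjusted p = 1.55e-06). MYL12B had 0.16 (SE 0.10, edgeR adjusted p = 0.160), and passed with library size alone. MYL5 and MYL10 were under the filter.

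The kinases that phosphorylate the regulatory chains differed in direction. MYLK2, the skeletal muscle kinase, was at 67.5 to 99.4 CPM in muscle and 0 to 0.427 CPM in liver, and MYLK4 was higher in muscle by 1.47 on the log2 scale (SE 0.18, edgeR adjusted p = 3.70e-05). MYLK, the smooth muscle and non-muscle kinase, was at 20.2 to 30.1 CPM in muscle and 128 to 167 CPM in liver, a log2 fold change of -2.52 (SE 0.11, edgeR adjusted p = 1.23e-08). MYLK3, known as the cardiac kinase, was at 2.58 to 5.73 CPM in muscle and 36.0 to 51.6 CPM in liver, a log2 fold change of -3.36 (SE 0.13, edgeR adjusted p = 6.56e-09). MYLK2 and MYLK4 passed the filter through muscle alone and MYLK3 through liver alone. The directions of these 3 kinases were thus built into their being tested, whereas MYLK passed the filter in both tissues. Over the 17 regulators of light chain phosphorylation, 16 were tested and all passed, 9 higher and 7 lower in muscle, beside 42.5% higher and 42.2% lower among all genes, with a median log2 fold change of 0.37 against -0.005 over all genes. ROCK1, one of the 7, was not called with library size alone. PPP1R14A, a phosphatase inhibitor, was among the lower, with a log2 fold change of -1.87 (SE 0.14, edgeR adjusted p = 8.70e-07). It was at 3.54 to 5.10 CPM in muscle and, like MYLK3, passed the filter through liver alone.

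No gene of these lists passed between the conception groups by edgeR's quasi-likelihood test. In muscle 0 of 14 regulators, 0 of 3 other light chains, 0 of 9 sarcomeric heavy chains and 0 of 4 cytoplasmic and smooth muscle heavy chains passed, with 1, 0, 3 and 2 of them at an unadjusted p under 0.05, as were 9.19% of all genes. In liver 0 of 14, 0 of 2 and 0 of 4 passed, with 2, 0 and 0 at an unadjusted p under 0.05, beside 8.39% of all genes, and no sarcomeric heavy chain was tested. DESeq2 called none of them in either tissue, and edgeR's likelihood ratio test called MYH11 alone, in muscle. The kinase with the largest muscle value was MYLK4, with a log2 fold change of 0.60 (SE 0.29, edgeR adjusted p = 0.574). In liver MYLK3 had 0.34 (SE 0.13, edgeR adjusted p = 0.561).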

How the data were processed

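The authors deposited whole-number read counts per gene for each tissue, made per the labels and methods from poly(A)-selected, strand-specific paired-end RNA-seq (FastQC 0.11.7, HISAT2 2.1.0, SAMtools, featureCounts, assembly ARS-UCD1.2). The strand setting of the counting, and how reads shared by near-identical genes were counted, were not given in the sources used here. The deposited edgeR 3.24.3 comparison tables (log2 fold changes, likelihood ratios, p-values) were not used. Per tissue, 6 count columns matched samples by fetal ID, and 7 others (14 in all) were not used; the 5 kidney samples of the labels were not used here.

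Counts were tested as deposited with edgeR 4.0.16 in R 4.3.3 (TMM, quasi-likelihood test, Benjamini-Hochberg over all tested genes, threshold 0.05), with a filter of 5 CPM or more in every library of 1 group or the other. Conception groups were compared within each tissue without covariates; tissues and the interaction were tested over 12 libraries with the fetus as a block. Printed CPM use TMM over all 12 libraries. Liver and muscle are paired because they come from the same fetus; the correlations of their deviations from group means were 0.04 to 0.36. The tests were checked on simulated data with 200 changed genes. Shares were compared by exact permutation tests (SciPy 1.17.1). They were to be taken per kb of merged exons, but no annotation of this assembly was used here, so shares are of reads, and levels between genes are per kb of the listed span. Alternatives were other scalings and filters, the likelihood ratio test, DESeq2 1.42.0, blocks and leaving out each library.

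The members, partner lists and markers were chosen with earlier results of these data known. All members are named, with partner genes past the threshold that changed most (at most 4 per list) and every light chain and kinase; genes with a pattern like a member were to be named where its muscle range reached 2-fold, which none did. CNN1, ACTA1, COL1A1, COL3A1, DCN, LUM, CKM, TNNC2, MYBPC1, DES, MYOD1, RYR2, MYH1, MYH4, MYH6, MYH15, MYH11, SMARCC2 and SEPT1, and the partners ROCK1 and PPP1R14A, were named as markers, neighbours or exceptions after their values were seen. Over the 7 marker lists, the connective tissue sum in liver was 543 to 1152 CPM and the macrophage sum 133 to 176 CPM. The erythroid sum in liver was 23911 CPM in Control-AI 2 and 5068 to 6100 CPM in the other livers. In muscle the cardiac sum was 180 to 232 CPM.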

Additional observations from a re-analysis of the deposited data

Results flagged for a closer look

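In a group of 4 to 10 samples, a value was singled out where its gap to the nearest other sample was an unusually large part of the group's whole range. Of 23 groups of member values examined, 2 met this. Chance singles out about 1 group in 20 where values vary continuously. That rate does not apply to these 2, in which 3 values of 0 meet the rule whatever the other value is. MYL2 in ART-Normal liver was at 0.0222 CPM in ART-Normal 2, from 1 count, and at 0 in the other 3 libraries. MYL3 in ART-Normal liver was at 0.0338 CPM in ART-Normal 4, from 1 count, and at 0 in the other 3. Each rests on a single count and lies under the limit of 3 counts that a count of 0 allows.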

How the results depend on the processing

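Depth and design limit these results: liver counts of 6 members were too few to test by conception, and 2 Control-AI fetuses leave 1 when a control is left out, which is then assumed to vary like the ART-Normal libraries. The muscle to liver calls of the 8 members kept their direction and call in all alternatives that gave a value, except that a filter of at least 10 counts in every library tested, and called, 2 members. Library size alone moved the median log2 fold change of all genes to 0.21 in the liver conception comparison, to 0.14 between tissues and to -0.21 in the interaction. The cause of the other changes was not tested, and shares per kb of merged exons were not run.

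Genes called in the muscle conception comparison rose from 1 to 120 with the likelihood ratio test, 106 with DESeq2 and 90 with a replicate block, and were 0 to 1327 with a library left out (members 0 to 1, MYL9). In liver they rose from 0 to 6 with library size alone, 89 with the likelihood ratio test, 56 with DESeq2, 6 with the replicate block and 4 with both tissues in one fit, and were 0 to 830 with a library left out. Interaction calls rose from 0 to 1 with library size alone, 108 with the likelihood ratio test and 23 with DESeq2, and were 0 to 208 with a library left out (members 0 to 2, MYL1 and MYL2). The highest of each of these ranges is without Control-AI 4, that is with Control-AI 2 as the lone control, and without any other library no more than 5 genes were called.

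ART-Normal and Control-AI fetuses that share a number are different animals (correlations of deviations -0.13 to 0.01), so that block pairs nothing, and it called 0 members. With it the muscle log2 fold change was 0.18 for MYL4, 0.052 for MYL6 and 0.13 for MYL2. With no replicate block 10507 genes were called between tissues and 0 in the interaction.

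With 1 library left out, the muscle log2 fold change ran from -0.10 (without ART-Normal 4) to 0.078 (without ART-Normal 1) for MYL4, from -0.11 (without Control-AI 2) to 0.10 (without Control-AI 4) for MYL6, from -0.12 (without Control-AI 2) to 0.086 (without Control-AI 4) for MYL2, and from -0.021 (without ART-Normal 4) to 0.21 for MYLPF. It ran from 0.13 (without ART-Normal 2) to 0.44 for MYL6B. That of liver MYL6 ran from -0.22 without Control-AI 2 to 0.44 without Control-AI 4. The interaction ran from -0.37 to 0.087 for MYL6 and from -0.60 to 0.087 for MYL9. For MYL1, MYL2, MYL3 and MYLPF it was lowest without Control-AI 2. It ran from -0.16 to 7.58 for MYL1, from -1.51 to 7.04 for MYL2, from -1.66 to 2.34 for MYL3 and from -4.002 to 4.52 for MYLPF. The values of these genes depend on the prior count, because their liver counts were 0 in several fetuses. Without Control-AI 2 no liver count of MYL1 remains.

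The conception difference of the MYL3 share was -1.22 percentage points per kb of span. That of the sarcomeric share in liver ran from -2.18 without Control-AI 4 to 0.14 without Control-AI 2. With a fetus left out the tissue difference was 48.7 to 51.7 percentage points for the MYL6B share and 87.6 to 87.9 for the sarcomeric share (p = 0.0625 by exact permutation, the smallest 5 pairs allow).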
